A study of Mus musculus with 6 samples.

Results

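The genes described here bring fatty acids into brown adipose tissue (BAT) and carry them inside the cell. They were chosen by symbol, and 10 of the 47729 genes in the files carry those symbols. Lpl, Gpihbp1 and Angptl4 act on fatty acid release in the capillary, Cd36, Slc27a1 and Slc27a2 act at membranes, and Fabp3, Fabp4, Fabp5 and Fabp7 encode fatty acid binding proteins (FABPs). The tissue was the right interscapular BAT of 6 wild type male C57BL/6J mice, housed singly at room temperature and fed from 6 to 10 weeks of age. Of these, 3 ate a high-fat diet (HFD) with 45% of its calories from fat for 4 weeks, and 3 ate a standard rodent diet, called the low-fat diet (LFD), for the same time. The diets came from different makers, and the mice sequenced spanned the range of fat mass in their diet group, from least to greatest. No transgene or other treatment was used, and the question was how the BAT transcriptome differs between lean and diet-induced obese mice.

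Brown adipocytes burn fatty acids to make heat, and they draw much of this fuel from lipoproteins in the blood. Lipoprotein lipase (LPL), held on the capillary wall by GPIHBP1, frees fatty acids from triglycerides, and ANGPTL4 inhibits it. The scavenger receptor CD36 and the fatty acid transport proteins of the SLC27 family help fatty acids enter the cell, and FABPs bind them in the cytosol and carry them to mitochondria, lipid droplets and nuclear receptors. Several of these genes are known targets of peroxisome proliferator-activated receptors (PPARs).

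Some libraries stood apart. LFD replicate 3 had the highest summed level of 12 fibroblast and progenitor markers, at 34695 TPM against 2288 to 11604 TPM in the other mice. TPM are transcripts scaled to gene length and to a fixed total in each library. The 10 genes together took 0.37% of its counts, against 0.783% to 1.52% in the other mice. Ucp1, the uncoupling protein that defines brown adipocytes, was at 2728, 4021 and 796 TPM in HFD replicates 1, 2 and 3. It was at 443, 11.03 and 76.0 TPM in LFD replicates 1, 2 and 3. LFD replicate 2 thus held little of the defining brown marker. The general adipocyte gene Adipoq was at 2015 TPM in that mouse and between 388 and 1823 TPM in the others. Markers of skeletal muscle summed to 19.1 to 358 TPM in HFD-fed mice and 2116 to 14258 TPM in LFD-fed mice. LFD replicate 2 had the highest muscle sum, and what set these levels was not tested. Between 17156991 and 21603487 counts per mouse were available, and mitochondrially encoded genes took 8.50% to 22.7% of the counts in HFD-fed mice and 3.87% to 13.8% in LFD-fed mice.

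In these data Fabp3, Slc27a2 and Fabp7 had higher TPM in every HFD-fed mouse than in every LFD-fed mouse, a pattern found in 1.65% of all tested genes, with fitted differences of 10.0-fold, 9.14-fold and 6.59-fold. Slc27a1 had lower TPM in every HFD-fed mouse, a pattern found in 11.6% of all tested genes, with a fitted difference of 3.89-fold. Lpl, Gpihbp1, Angptl4, Cd36, Fabp4 and Fabp5, which include the most abundant transcripts of the pathway, overlapped between the diets. None of the 10 genes was called by edgeR's quasi-likelihood test at the study's thresholds, which are an adjusted p under 0.01 together with a log2 fold change beyond 1.5 in size. The test called 0% of the 17668 genes tested, and 1851 genes had an unadjusted p under 0.05. At that unadjusted level, 3 of the 10 genes were higher in HFD-fed mice, against 3.86% of all genes, and 1 was lower, against 6.62%. Fabp7, among those higher, passed edgeR's low-count filter only through the HFD-fed mice. By DESeq2 with default settings, Fabp3 and Fabp7 were called, and 0.531% of its 19965 genes with an adjusted p were called higher. In log2 CPM, counts scaled to library size, every HFD-fed mouse was above every LFD-fed mouse for 3 of the 10 genes and for 6.72% of all genes, and below for 0 of the 10 and 9.23% of all genes. The median log2 fold change of the 10 genes was 0.25, and that of all tested genes was -0.05. Of the 10 genes, 6 had a log2 fold change above 0, against 45.6% of all genes. Fold changes are HFD over LFD unless another order is named. Fewer cells of a type and less RNA per cell cannot be told apart in bulk tissue.

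**Figure D1:**
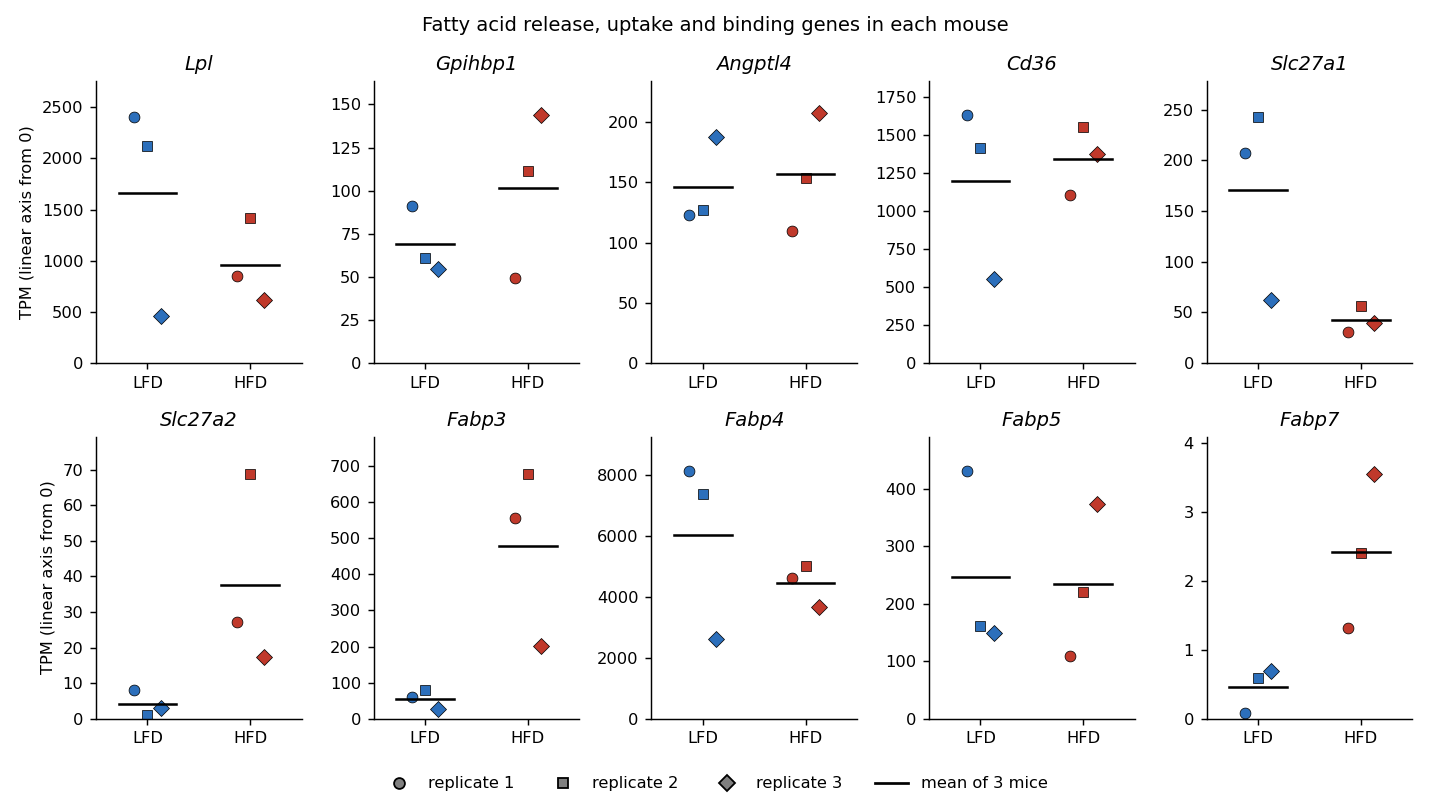
TPM (vertical axes, linear and from 0, a separate scale for each gene) of the 10 genes in each of the 3 LFD-fed (blue) and 3 HFD-fed (red) mice, with marker shapes for replicate numbers and lines for the mean of 3 mice. Fabp3, Slc27a2 and Fabp7 lie higher in all HFD-fed mice, Slc27a1 lies lower, and the other genes overlap.

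The promoter windows of the 4 genes whose TPM did not overlap are shown because members of this pathway are known PPAR targets. PPARs bind repeats of the half-site AGGTCA, which was searched on both strands and is in capitals below (TGACCT is the same half-site on the other strand). Each window runs from 250 bases before to 50 bases after a RefSeq gene start on GRCm38.p6, is printed 5′ to 3′, and was found for 5 of the 10 genes. RefSeq gives Slc27a1 3 such windows, of which the first by position is printed.
Fabp3, chr4:130308488-130308787, plus strand: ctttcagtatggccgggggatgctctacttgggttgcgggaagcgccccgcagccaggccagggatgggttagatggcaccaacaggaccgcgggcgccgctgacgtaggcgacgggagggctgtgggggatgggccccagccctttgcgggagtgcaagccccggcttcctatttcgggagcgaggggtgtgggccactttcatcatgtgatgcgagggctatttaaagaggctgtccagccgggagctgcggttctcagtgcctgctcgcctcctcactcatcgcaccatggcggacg
Fabp7, chr10:57784673-57784972, plus strand: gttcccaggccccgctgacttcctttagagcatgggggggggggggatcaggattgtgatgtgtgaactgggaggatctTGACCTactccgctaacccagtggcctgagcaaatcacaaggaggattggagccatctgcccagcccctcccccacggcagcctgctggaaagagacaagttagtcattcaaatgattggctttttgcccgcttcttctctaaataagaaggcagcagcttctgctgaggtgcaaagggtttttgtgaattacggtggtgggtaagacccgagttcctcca
Slc27a2, chr2:126552774-126553073, plus strand: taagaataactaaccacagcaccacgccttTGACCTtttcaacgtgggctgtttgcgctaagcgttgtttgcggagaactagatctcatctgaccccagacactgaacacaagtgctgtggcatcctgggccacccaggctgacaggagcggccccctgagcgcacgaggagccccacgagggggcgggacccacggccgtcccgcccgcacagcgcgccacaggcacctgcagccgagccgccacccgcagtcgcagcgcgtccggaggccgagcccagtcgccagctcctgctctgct
Slc27a1, chr8:71568621-71568920, plus strand: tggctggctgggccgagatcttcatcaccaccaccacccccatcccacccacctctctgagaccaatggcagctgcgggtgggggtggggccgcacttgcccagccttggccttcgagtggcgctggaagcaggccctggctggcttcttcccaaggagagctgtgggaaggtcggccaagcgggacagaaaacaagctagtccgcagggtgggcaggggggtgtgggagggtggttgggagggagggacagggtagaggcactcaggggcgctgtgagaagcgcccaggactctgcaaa
The half-site stood once in the Fabp7 window, 171 bases before the start, and once in the Slc27a2 window, 220 bases before the start. It also stood 228 bases before the start of Cd36, a gene whose levels overlapped between the diets. It was not in the window of Fabp3 or in any of the 3 of Slc27a1, and 16.3% of all 32851 windows of this length held it. The full PPAR response element, made of 2 such half-sites with 1 base between them, was in 0.0396% of all windows and in none of those of the 5 genes. These matches describe letters in a window, and no binding was measured.

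Lpl, which frees fatty acids from circulating triglycerides, was among the most abundant transcripts (chromosome 8 from 68880491 to 68907448, plus strand of GRCm38, as for all gene positions below). It was at 850, 1413 and 614 TPM in HFD replicates 1, 2 and 3 and at 2409, 2123 and 461 TPM in LFD replicates 1, 2 and 3. LFD replicates 1 and 2 were the highest of the 6 mice and LFD replicate 3 the lowest, so the diets overlapped. The log2 fold change was -0.74 (SE 0.87, 95% interval -2.81 to 1.33, edgeR adjusted p = 0.856), and it was -1.24 without LFD replicate 3 and 0.045 without LFD replicate 1. Gpihbp1, which moves LPL to the capillary surface and holds it there, lies on chromosome 15 from 75596628 to 75599481 on the plus strand. Its TPM were 49.3, 111 and 144 in HFD-fed mice and 91.2, 61.1 and 54.3 in LFD-fed mice. HFD replicates 2 and 3 were the highest and HFD replicate 1 the lowest. Its log2 fold change was 0.61 (SE 0.48, interval -0.54 to 1.76, edgeR adjusted p = 0.758), and it was 1.31 without LFD replicate 1 and 0.31 without LFD replicate 3. Markers of endothelium, the cells that make GPIHBP1, had sums of 186, 667 and 819 TPM in HFD-fed mice and 228, 408 and 486 TPM in LFD-fed mice. The order of the mice by these sums was that of Gpihbp1 within the HFD-fed mice and the opposite within the LFD-fed mice. Of the 12 endothelial markers 10 were higher, 0 were called by edgeR or DESeq2, none was at 0 in any mouse, and their part in the Gpihbp1 values was not tested.

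Angptl4, a secreted inhibitor of LPL that is induced by fatty acids and fasting, had the smallest SE of the 10 genes (chromosome 17 from 33773750 to 33781830, minus strand). It was at 110, 153 and 208 TPM in HFD-fed mice and at 123, 127 and 188 TPM in LFD-fed mice. Replicate 3 was the highest mouse of each diet. Its log2 fold change was 0.30 (SE 0.27, interval -0.34 to 0.95, edgeR adjusted p = 0.793). Ratios within a library do not depend on scaling between libraries. The ratio of Angptl4 to Lpl was 0.129, 0.109 and 0.339 in HFD-fed mice and 0.051, 0.0598 and 0.408 in LFD-fed mice, so it was highest in replicate 3 of both diets and the diets overlapped. The ratio of Gpihbp1 to Lpl was 0.058, 0.0787 and 0.235 in HFD-fed mice and 0.0379, 0.0288 and 0.118 in LFD-fed mice. It too was highest in replicate 3 of each diet, and the diets overlapped. In all 3 same-numbered pairs the HFD-fed mouse was higher, but the labels give no pairs and the pairing was read from these same data.

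Cd36, which takes up long-chain fatty acids at the surface of adipocytes and endothelium, lies on chromosome 5 from 17781690 to 17888801 on the minus strand. It was at 1108, 1553 and 1375 TPM in HFD-fed mice and at 1635, 1416 and 554 TPM in LFD-fed mice. The lowest mouse was LFD replicate 3, and the highest was LFD replicate 1. Between the diets the log2 fold change was 0.20 (SE 0.68, interval -1.43 to 1.82, edgeR adjusted p = 0.964), and it was -0.24 without LFD replicate 3.

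The 2 fatty acid transport proteins differed in opposite directions. Slc27a1, which encodes FATP1, the insulin-responsive transporter of muscle and adipocytes, lies on chromosome 8 from 71568882 to 71587302 on the plus strand. It was at 30.8, 56.05 and 39.8 TPM in HFD-fed mice and at 207, 242 and 62.0 TPM in LFD-fed mice. Every HFD-fed mouse was below every LFD-fed mouse in TPM, but the diets overlapped on the log2 CPM scale. The log2 fold change was -1.96 (SE 0.64, interval -3.49 to -0.43, edgeR unadjusted p = 0.0195, adjusted p = 0.363). Without LFD replicate 3 it was -2.42 with an edgeR adjusted p of 0.0405, and without LFD replicate 1 it was -1.40. By DESeq2 the adjusted p was 0.0597.

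Skeletal muscle also uses FATP1, and its markers moved the same way. All 19 tested of the 20 muscle markers were lower in HFD-fed mice, 18 of them at an unadjusted p under 0.05, with a median log2 fold change of -6.04, and edgeR called 0 while DESeq2 called 19 of the 20 lower. Among them, the muscle creatine kinase gene Ckm had a log2 fold change of -6.50 and the troponin gene Tnnc2 one of -6.61. The muscle sum was 98.6, 358 and 19.1 TPM in HFD-fed mice and 5810, 14258 and 2116 TPM in LFD-fed mice (exact two-sided permutation p = 0.1, the smallest possible with 3 against 3). Tnni1 was the muscle marker listed at 0 in some mice, and the part of muscle RNA in the Slc27a1 values was not tested.

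Slc27a2 encodes FATP2, a transporter and very-long-chain acyl-CoA synthetase best known from liver and kidney (chromosome 2 from 126552407 to 126588243, plus strand). It was at 27.1, 68.8 and 17.3 TPM in HFD-fed mice and at 7.96, 1.05 and 2.91 TPM in LFD-fed mice. The lowest HFD-fed mouse was above the highest LFD-fed mouse. The log2 fold change was 3.19 (SE 1.08, interval 0.61 to 5.77, edgeR unadjusted p = 0.0225, adjusted p = 0.381), and it was 4.97 without LFD replicate 1. By DESeq2 the adjusted p was 0.0317, and with a prior on fold changes the value was 2.06. Taken by replicate number, the CPM ratio of the HFD-fed to the LFD-fed mouse was 3.82, 120 and 8.25, and the widest came with LFD replicate 2. The 6 mice stood in the same order by Slc27a2 as by Ucp1, from HFD replicates 2, 1 and 3 to LFD replicates 1, 3 and 2. Ucp1 itself had a log2 fold change of 3.67 (edgeR adjusted p = 0.480). Of the 12 brown adipocyte markers 9 were higher and 3 lower and 0 were called by edgeR or DESeq2. The 3 lower were Adrb3 at -0.36, Plin1 at -0.78 and the general adipocyte gene Adipoq at -1.19 on the log2 scale. Their sums overlapped at 2612 to 8599 TPM against 1019 to 5159 TPM (exact two-sided permutation p = 0.3, without regard to pairs), and the HFD-fed mouse had the higher sum in all 3 same-numbered pairs. None of these markers was at 0 in any mouse, and the part of brown adipocyte RNA in the Slc27a2 values was not tested. The 3754 exonic bases of Slc27a2 share 419 with the antisense gene Gm26697, which was at 0.69 TPM or less in every mouse.

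The ratio of Slc27a2 to Slc27a1 in TPM was 0.879, 1.23 and 0.434 in HFD-fed mice and 0.0384, 0.00433 and 0.0469 in LFD-fed mice. In HFD replicate 2 FATP2 transcripts thus outnumbered FATP1 transcripts, and in every LFD-fed mouse they were a small fraction of them. These genes were chosen with their separate values known, so the ratio is a description without a test.

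**Figure D2:**
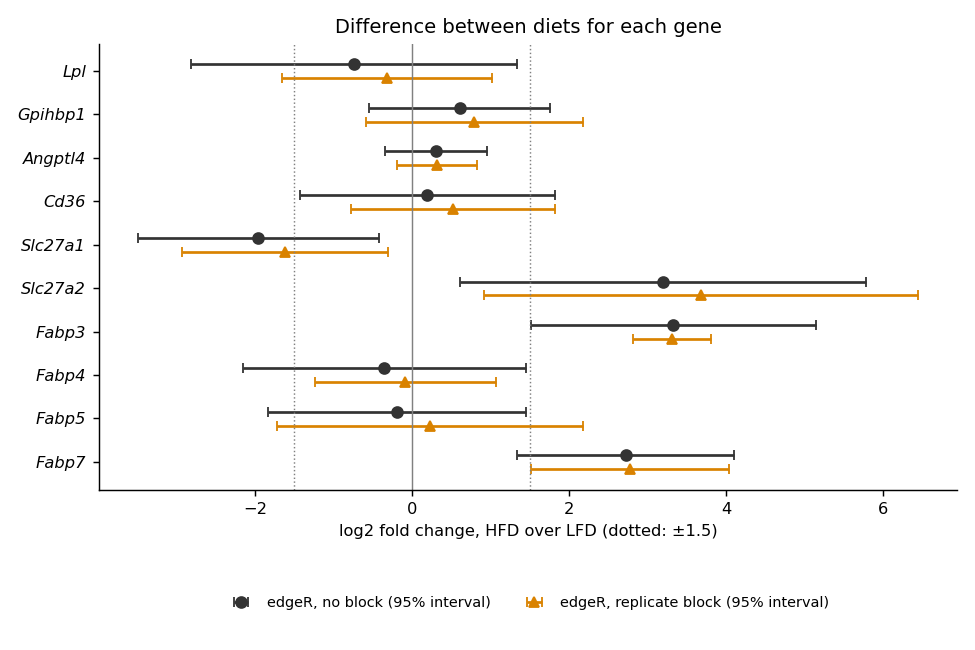
Log2 fold change (horizontal axis, HFD over LFD) of each gene with its 95% interval, by edgeR without a block (circles) and with the replicate number as a block (triangles), and dotted lines at ±1.5. The intervals of Fabp3, Fabp7, Slc27a2 and Slc27a1 exclude 0 in both fits, and the block narrows that of Fabp3 most.

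Fabp3, the heart and muscle FABP, lies on chromosome 4 from 130308595 to 130315463 on the plus strand. Taken as highest over lowest, its spread of ratios between same-numbered mice was the narrowest among the 10 genes. Fabp3 was at 556, 679 and 202 TPM in HFD-fed mice and at 60.2, 79.0 and 26.6 TPM in LFD-fed mice. The means were 479 ± 248 and 55.3 ± 26.6 TPM (SD, n = 3 mice each), and replicate 3 was the lowest mouse of each diet. The log2 fold change was 3.32 (SE 0.76, interval 1.51 to 5.14, edgeR unadjusted p = 0.00359, adjusted p = 0.2). By DESeq2 it was 3.33 with an adjusted p of 0.000307. Taken by replicate number, the CPM of the HFD-fed mouse was 10.1, 9.92 and 9.66 times that of the LFD-fed mouse. Blocking on the replicate number narrowed the SE to 0.19 with an edgeR adjusted p of 0.0107. A value under 0.05 was reached by 0.164% of all genes in this direction and by 1 of the 10 genes. That pairing was read from these same data and is not given by the labels. Leaving out each mouse in turn gave log2 fold changes of 2.88 to 3.75. The skeletal muscle markers differed the other way, as given above, and of the 12 brown adipocyte markers 9 were higher and 3 lower. The part of muscle or brown adipocyte RNA in the Fabp3 values was not tested. The 823 exonic bases of Fabp3 share 81 with the antisense gene Zcchc17, which was at 19.1 to 24.9 TPM in HFD-fed mice and 31.8 to 33.5 TPM in LFD-fed mice, and whether reads were counted by strand is not given in the sources used here.

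Fabp4, the adipocyte FABP, was the most abundant of the 10 genes in every mouse and ranked 17 of all genes by mean TPM (chromosome 3 from 10204088 to 10208576, minus strand). It was at 4628, 5014 and 3664 TPM in HFD-fed mice and at 8136, 7354 and 2624 TPM in LFD-fed mice. The LFD-fed mice included both the highest values and the lowest. Its log2 fold change was -0.35 (SE 0.76, interval -2.15 to 1.45, edgeR adjusted p = 0.937), and it was 0.32 without LFD replicate 1 and -0.79 without LFD replicate 3.

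Fabp5, the epidermal FABP also made by macrophages and endothelium, lies on chromosome 3 from 10012548 to 10016607 on the plus strand. It was at 109, 221 and 375 TPM in HFD-fed mice and at 431, 162 and 150 TPM in LFD-fed mice. Replicate 1 was the lowest HFD-fed mouse and the highest LFD-fed mouse. Between the diets the log2 fold change was -0.19 (SE 0.69, interval -1.83 to 1.45, edgeR adjusted p = 0.965), it was 0.23 with the replicate block, and it was 0.98 without LFD replicate 1. Macrophage markers summed to 2000, 2535 and 4117 TPM in HFD-fed mice and 667, 2813 and 4658 TPM in LFD-fed mice (exact two-sided permutation p = 1). Of the 12 macrophage markers in the files 8 were higher and 4 lower with 0 called by edgeR or DESeq2, and none was at 0 in any mouse. Among the higher were Fcgr1 at 2.06 and Cd68 at 1.72 on the log2 scale. The 4 lower were Cd163 at -1.53, Mertk at -0.27, Mrc1 at -0.16 and Csf1r at -0.03.

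Fabp7, the brain FABP known from glia and their progenitors, was the lowest of the 10 genes (chromosome 10 from 57784881 to 57788450, plus strand). It was at 1.31, 2.4 and 3.55 TPM in HFD-fed mice and at 0.08, 0.59 and 0.69 TPM in LFD-fed mice, and every HFD-fed mouse was above every LFD-fed mouse. These levels rest on 21, 28 and 45 counts in HFD-fed mice and on 1, 6 and 6 counts in LFD-fed mice. Fabp7 passed edgeR's low-count filter only through the HFD-fed mice, where it was high. Its fold change and p are therefore a description and no separate support for a difference. The fitted log2 fold change was 2.72 (SE 0.58, interval 1.34 to 4.10, edgeR unadjusted p = 0.00246, adjusted p = 0.182), and by DESeq2 it was 2.77 with an adjusted p of 0.00335. On the log2(TPM + 1) scale, which understates changes of low genes, it was 1.21, while the median of all genes was -0.20 on that scale. Schwann cell and nerve markers had 5 higher and 6 lower genes of 11 tested, with 0 called by edgeR and Egr2 called higher by DESeq2, and sums of 149, 185 and 100 TPM in HFD-fed mice against 194, 166 and 160 TPM in LFD-fed mice. Their glial members S100b and Egr2 had log2 fold changes of 3.57 and 1.71 in that order, and Gfap was listed at 0 in some mice. T and NK cell markers had 10 higher and 1 lower of 11 tested, edgeR called 0 and DESeq2 called 5 higher, among them Gzma at 3.23 and Ncr1 at 2.97, and sums of 20.9 to 51.8 TPM against 14.7 to 22.9 TPM. The part of any of these cells in the Fabp7 values was not tested.

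The makeup of the FABP pool differed between the diets. Of the summed TPM of the 4 FABP genes, Fabp3 made up 10.5%, 11.5% and 4.76% in HFD-fed mice and 0.698%, 1.04% and 0.950% in LFD-fed mice. Fabp4 made up 87.4%, 84.8% and 86.3% in HFD-fed mice and 94.3%, 96.8% and 93.7% in LFD-fed mice. Neither share overlapped between the diets, with means of 8.91% ± 3.63 against 0.896% ± 0.177 for Fabp3 and 86.2% ± 1.34 against 94.9% ± 1.66 for Fabp4 (SD, n = 3 mice each). Fabp5 made up 2.05%, 3.73% and 8.83% against 4.99%, 2.13% and 5.34%, which overlapped. The 4 shares add up to a whole, so the lower Fabp4 share is not a separate result from the higher Fabp3 share. Fabp4 TPM itself overlapped between the diets. The adipocyte FABP was the main one in every mouse of both diets. No test was made of these shares, since Fabp3 had been chosen with its values known.

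**Figure D3:**
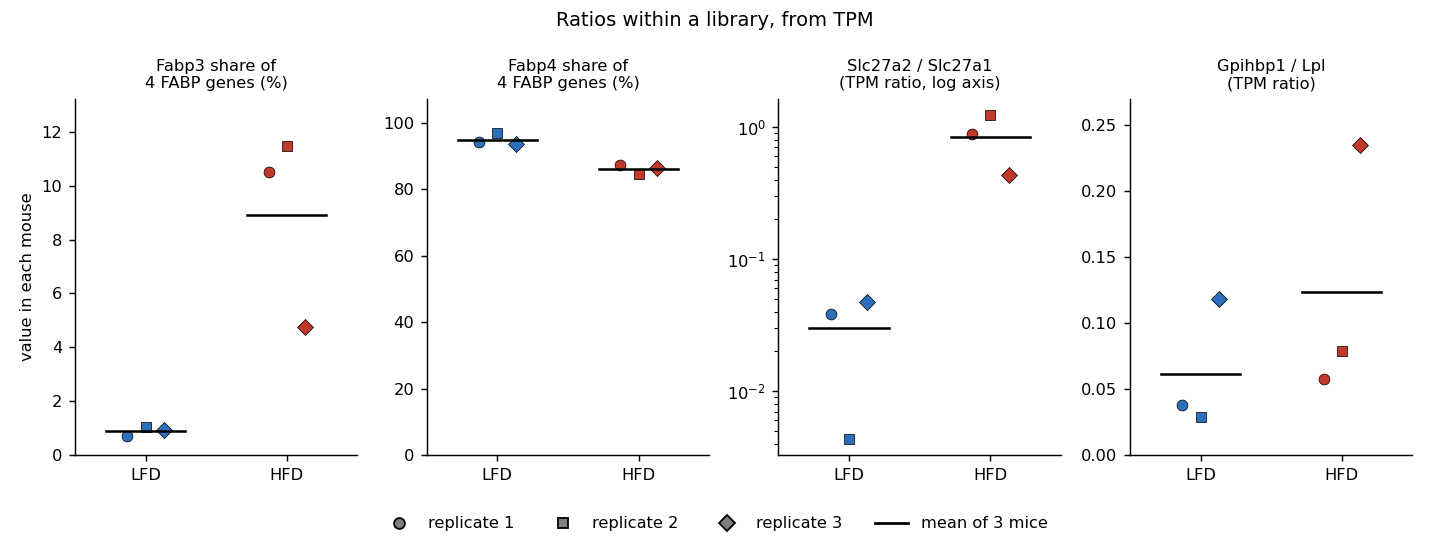
Shares of the summed TPM of the 4 FABP genes (percent) and TPM ratios between genes, each panel on its own vertical axis, in the 3 LFD-fed (blue) and 3 HFD-fed (red) mice, with lines for the mean. The Fabp3 share lies at 4.76% or more in HFD-fed mice and at 1.04% or less in LFD-fed mice, the ratio of Slc27a2 to Slc27a1 (log axis) does not overlap, and the ratio of Gpihbp1 to Lpl overlaps.

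By mean TPM in HFD-fed mice the genes stood in the order Fabp4, Cd36, Lpl, Fabp3, Fabp5, Angptl4, Gpihbp1, Slc27a1, Slc27a2 and Fabp7. Only the first pair and the last pair of neighbours in that order had ranges that did not overlap. In LFD-fed mice the order was Fabp4, Lpl, Cd36, Fabp5, Slc27a1, Angptl4, Gpihbp1, Fabp3, Slc27a2 and Fabp7. There the ranges were apart between Fabp4 and Lpl, Cd36 and Fabp5, Angptl4 and Gpihbp1, Fabp3 and Slc27a2, and Slc27a2 and Fabp7. Fabp3 ranked 4, 4 and 6 among the 10 genes in HFD-fed mice and 8, 7 and 8 in LFD-fed mice. Slc27a1 ranked 8, 9 and 8 in HFD-fed mice and 5, 4 and 6 in LFD-fed mice. TPM divides by transcript length, so these are comparisons between genes per length.

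The other genes of the pathway gave no called gene by edgeR, whose test called 0 genes in all. Of 19 tested genes of capillary lipolysis and lipoprotein uptake, 5 were higher and 14 lower, with 2 lower at an unadjusted p under 0.05 and a median log2 fold change of -0.29. Apoc3, an apolipoprotein that inhibits LPL, was at 0.5, 0.55 and 0 TPM in HFD-fed mice and at 16.8, 7.66 and 1.77 TPM in LFD-fed mice, and Apoe, a ligand for lipoprotein receptors, was at 959 to 1137 TPM against 2198 to 3303 TPM. Their log2 fold changes were -4.54 and -1.08 (edgeR adjusted p = 0.316 and 0.473), and every HFD-fed mouse was below every LFD-fed mouse for both. In log2 CPM, 3 of these 19 genes showed that pattern, against 9.23% of all tested genes. Of 14 tested genes of membrane uptake and transendothelial transport, 5 were higher and 9 lower, with 1 higher at an unadjusted p under 0.05 and a median of -0.47. The lysolipid transporter gene Mfsd2a had a log2 fold change of 2.24 and Dgat1, which makes triglyceride, one of -1.02, both with overlapping diets.

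Fatty acid activation, which joins fatty acids to coenzyme A, had 8 higher and 6 lower of 14 tested genes, with 3 higher and 2 lower at an unadjusted p under 0.05 and a median of 0.49. Its largest differences among genes at 1 TPM or more in at least 3 mice were in Acsm5, a medium-chain acyl-CoA synthetase, at -3.0, and in Acss2, which activates acetate, at -2.60 (edgeR adjusted p = 0.344 and 0.555). By DESeq2, which called 1.53% of genes lower, Acsl6 of this group and Apoc3 were called lower. Of the other fatty acid and acyl-CoA binding proteins only 8 of 16 passed the low-count filter, of which 2 were higher and 6 lower with a median of -0.42. Among them were Acbd4 at -1.20 and Crabp1 at -1.24, and Crabp1 was at 41.1 TPM in LFD replicate 3 and at 0.2 to 9.95 TPM in the other mice. Fabp1, Fabp2, Fabp9 and Fabp12 were at 0.65 TPM or less in every mouse and Fabp6 was listed at 0 in all.

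Of the 8 PPARs and their partners 6 were higher and 2 lower, with 2 higher and 1 lower at an unadjusted p under 0.05 and a median of 0.35. Ppara, the receptor that drives fatty acid oxidation genes, was at 48.8, 77.4 and 26.4 TPM in HFD-fed mice and at 15.3, 7.82 and 4.48 TPM in LFD-fed mice. The diets did not overlap, and its log2 fold change was 2.56 (SE 0.82, edgeR adjusted p = 0.351). In log2 CPM, 6.72% of all tested genes had every HFD-fed mouse above every LFD-fed mouse. The coactivator gene Ppargc1b had one of 1.5 (edgeR adjusted p = 0.425). Pparg, the main receptor of adipocyte differentiation, had one of 0.02.

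**Figure D4:**
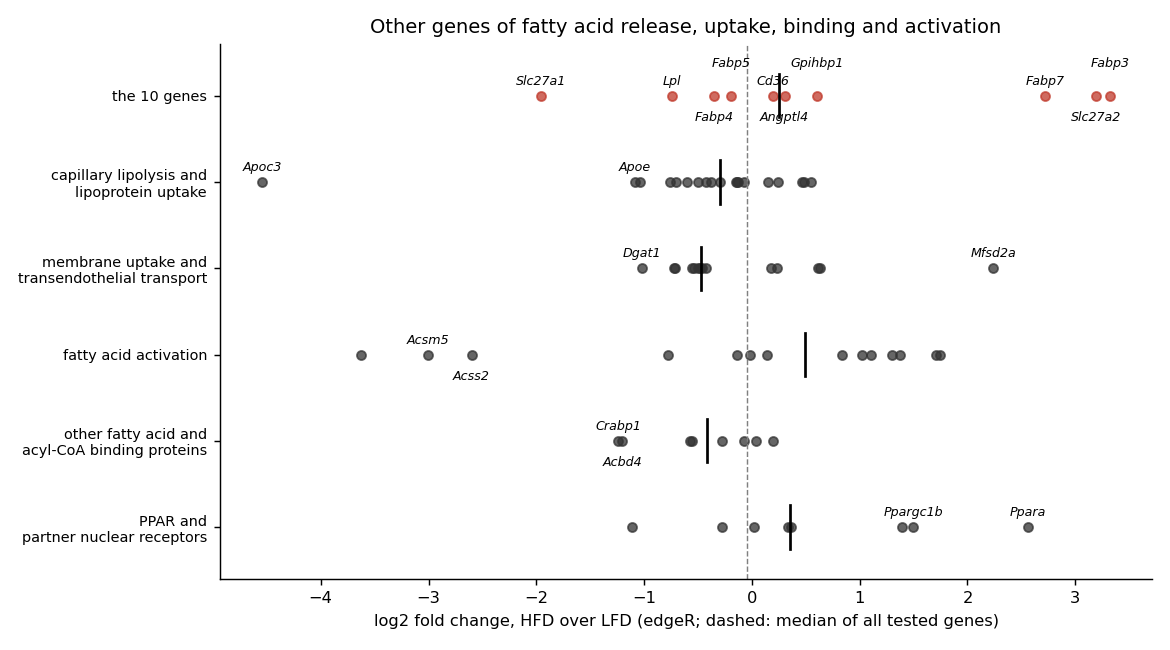
Log2 fold change (horizontal axis, HFD over LFD by edgeR) of the 10 genes (red) and of each tested gene of 5 other groups (grey), with short vertical bars for each group's median and a dashed line for the median of all tested genes. Fabp3, Slc27a2 and Fabp7 lie to the right of all genes of the other groups, and Apoc3 lies farthest left.

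The gene whose profile over the 6 mice was nearest was found for each of the 10 genes among 10271 genes, by the Euclidean distance of centred log2 CPM. Fabp3 was nearest to Slc25a34, a mitochondrial carrier gene (distance 1.16), followed by Ppara (1.18) and Cpt1b (1.3), which carries fatty acids into mitochondria. Slc27a2 was nearest to Cidea, a lipid droplet gene of brown adipocytes (1.32). Cd36 was nearest to Pparg (0.402), Lpl to Nrg4, a factor secreted by brown adipocytes (0.281), and Fabp4 to Alas1, the first enzyme of haem synthesis (0.160). Slc27a1 was nearest to Nos3, endothelial nitric oxide synthase (0.455). Gpihbp1 was nearest to Sema3g (0.487) and Fabp5 to Rbp7 (0.755). Fabp7 was nearest to the interferon-induced gene Rsad2 (0.617) and Angptl4 to the DNA repair gene Ercc1 (0.179). The genes compared had a mean log2 CPM of 3 or more, while Fabp7 rests on 1 to 45 counts, so its neighbour is uncertain. Among the 10 genes themselves, the closest pairs were Fabp4 with Cd36 (0.859), Fabp4 with Lpl (0.875) and Fabp5 with Gpihbp1 (0.981). These distances rest on 6 mice and share each library's composition.

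**Figure D5:**
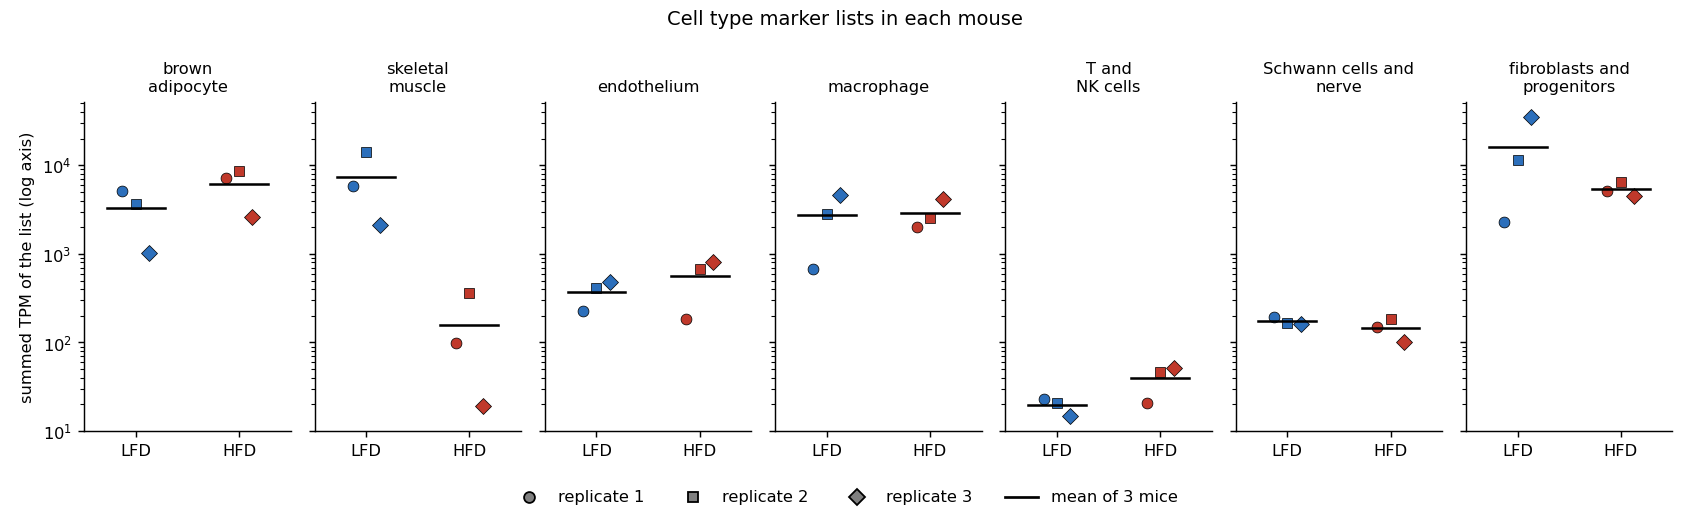
Summed TPM (vertical axis, log scale) of 7 lists of cell type markers in the 3 LFD-fed (blue) and 3 HFD-fed (red) mice, with marker shapes for replicate numbers and lines for the mean. Skeletal muscle markers do not overlap between the diets, and fibroblast and progenitor markers are highest in LFD replicate 3.

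Of the fibroblast and progenitor markers 2 were higher and 10 lower with 0 called by edgeR or DESeq2, and their sums overlapped at 4455 to 6536 TPM in HFD-fed mice and 2288 to 34695 TPM in LFD-fed mice (exact two-sided permutation p = 0.4). Dcn, a matrix proteoglycan gene, had a log2 fold change of -1.39 and the progenitor gene Pi16 one of -1.73. LFD replicate 3 had the most RNA of these markers and the lowest Lpl, Cd36 and Fabp4 of the 6 mice. Whether the makeup of this sample set those values was not tested.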

How the data were processed

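Total RNA of BAT, depleted of ribosomal RNA, was sequenced in single-end reads of 75 bases. Adapters were removed with Trimmomatic 0.36 and reads were quantified with RSEM 1.3.0 on GRCm38.p4, per the submitters' processing notes. The authors deposited an expected count per gene and mouse, not normalized, in which RSEM divides reads shared by several genes, and a TPM value, which is scaled to gene length and library total. The files' effective lengths and the posterior SD of counts were also read.

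Expected counts were rounded and tested with edgeR 4.0.16 in R 4.3.3 (quasi-likelihood test, TMM, its own low-count filter, Benjamini-Hochberg adjustment over all 17668 genes tested). Log2 CPM used a prior count of 2. Diet and replicate number came from the sample titles. All 10 genes passed the filter, Fabp7 on low counts and only through the HFD-fed mice, where it was high. TPM of marker lists were summed and compared by exact two-sided permutation tests, whose smallest p is 0.1. Counts of replicates differed by far more than sampling noise (chi-square per degree of freedom 79.7 to 621).

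The genes and lists were chosen with earlier results of these data known. Besides the 10 genes, the genes named were the 2 with the largest absolute log2 fold change in each list among those at 1 TPM or more in at least 3 mice, and the nearest gene to each of the 10. Named outside that rule, after their values were seen, were Adipoq, Adrb3, Plin1, Gfap, Tnni1, Acsl6, Pparg, Cpt1b, the overlapping genes and the FABP genes at low levels. The lower macrophage markers Cd163, Mertk, Mrc1 and Csf1r were also named in that way.

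Same-numbered mice of the 2 diets deviated together (r = 0.498, 0.229 and 0.522, against -0.528 to 0.0532 for the other 6 pairs), so the numbers were taken to pair the samples. Deviations were from each diet's mean, so positive values for these pairs go with lower values for the others. The study describes no pairs, and the labels do not say what the numbers mark. The pairing was read from these same data, and the replicate block and same-numbered comparisons rest on it. Alternatives were DESeq2 1.42.0 with 2 settings, RLE or no size factors, 2 other filters, the replicate block, mitochondrial genes left out, limma 3.58.1 on log2 TPM, each mouse left out and, chosen after seeing the data, both mice numbered 3 left out. The tests were also tried on simulated counts without cell mixture or replicate structure, so that trial does not vouch for them on these data. Positions are from GENCODE M21 on GRCm38 and promoter windows from RefSeq.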

Additional observations from a re-analysis of the deposited data

How the results depend on the processing

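With 3 mice a diet and a spread this wide, calls depended on the tool. DESeq2 with default settings called 106 genes higher and 306 lower, and with a fold-change prior and no independent filtering 93 and 276, where edgeR called 0 and 0. Under both, 2 of the 10 genes were called higher (Fabp3 and Fabp7), and 2 and 1 other pathway genes were called lower. Under the replicate block, 184 genes had an adjusted p under 0.05 against 0 without it, Fabp3 had a log2 fold change of 3.31 and Fabp5 one of 0.23, and no gene was called at 0.01. Without LFD replicate 3, 222 genes had an adjusted p under 0.05, and without both mice numbered 3, 42 did. Signs turned for Fabp4 (0.32) and Lpl (0.045) without LFD replicate 1. They turned for Fabp5 without normalization factors (0.14), without HFD replicate 1 (0.02) and without LFD replicate 1 (0.98), and for Cd36 without LFD replicate 3 (-0.24) and without both mice numbered 3 (-0.092). Over the fits that left out 1 mouse each, log2 fold changes ranged from -0.79 to 0.32 for Fabp4, -0.58 to 0.98 for Fabp5, -0.24 to 0.96 for Cd36 and -1.24 to 0.045 for Lpl. Over the same 6 settings, the HFD-to-LFD ratio of macrophage markers ranged from 0.772 to 1.66, the difference in the Fabp5 share from -1.26 to 2.13 percentage points and that in the ratio of Angptl4 to Lpl from -0.054 to 0.137. The cause of these differences was not tested. Fabp3, Fabp7, Slc27a2 and Slc27a1 kept their direction under all alternatives run, and Fabp7 was not tested where 10 counts were required in every mouse. Gpihbp1 and Angptl4 kept theirs too, at log2 fold changes of 0.15 to 1.31 and 0.085 to 0.44, with edgeR adjusted p of 0.758 and 0.793. A kept direction thus does not set the first 4 genes apart.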
